A study of Mus musculus with 6 samples.

Results

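A set of 10 genes that bind, take up or store fatty acids, or that belong to the peroxisome proliferator-activated receptors (PPARs) and their targets, were followed in keratinocytes from mouse epidermis with and without Lama3. They were chosen by name: Fabp4, Fabp5, Fabp7, Cd36, Slc27a1, Ppara, Ppard, Angptl4, Plin2 and Cpt1a. All 10 were found among the 45513 gene identifiers of the deposited count table. Both groups, of 3 mice each, were on a C57BL/6 background, carried the tamoxifen-dependent Cre K14-CreERT, driven by the keratin 14 promoter of basal keratinocytes, and belonged to an experiment in which Cre was activated with chow holding 400 mg of tamoxifen citrate per kg. The knockouts were Lama3flox/flox and lost exons 50 to 53 in cells with active Cre. The controls were Lama3wt/flox per the series' design text, while their genotype label reads wild type, so the group called control had 1 floxed allele if the design text holds. Neither age nor time on tamoxifen is stated for these mice.

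Free fatty acids enter cells with the help of membrane proteins such as CD36 and the fatty acid transport proteins of the Slc27 family. Inside, small fatty acid binding proteins (FABPs) carry them to membranes, to enzymes and to the nucleus, where they can activate PPAR alpha, delta and gamma, nuclear receptors that bind DNA together with a retinoid X receptor. Classical PPAR targets include Angptl4, Plin2 and Cpt1a, whose products act on lipoprotein lipase, coat lipid droplets and admit fatty acids to mitochondria. In epidermis, PPAR delta and FABP5 are known from keratinocyte differentiation and wound repair, and PPAR gamma from sebocytes.

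Total counts lay between 20126395 and 28473479 per library. Lama3 stood at 114 to 142 CPM (counts scaled to the library total and its normalization factor) in the controls and 79.2 to 98.9 CPM in the knockouts, with no overlap, although these counts also take in exons outside the deletion. Keratinocyte markers were abundant, and the 7 basal markers summed to 16818 to 23207 CPM in the controls and 15905 to 21638 CPM in the knockouts. Of 8 suprabasal markers 6 rose, against 17.4% of all genes tested. The sum of the 8 was 27178 to 43403 CPM in the knockouts against 11537 to 15275 CPM in the controls. The sum of sebocyte markers was 466 to 901 CPM in the knockouts against 1035 to 1429 CPM in the controls. Most of it was Scd1, with means of 600 CPM in the knockouts and 863 CPM in the controls (edgeR adjusted p = 0.184). The share of counts on mitochondrially encoded genes was 2.53% to 4.32% in the knockouts and 4.87% to 9.96% in the controls. The epidermis was measured in bulk, so fewer cells of a type and less RNA per cell cannot be told apart in anything that follows.

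The 10 genes did not move as 1 block. Fabp7 and Ppard rose in the knockouts, Angptl4, Plin2 and Slc27a1 fell, and the other 5 were not called. A gene is said to have risen or fallen where edgeR's quasi-likelihood test gave an adjusted p under 0.05 after correction across the 15513 genes tested. In this comparison 36.2% of all genes tested were called, 17.4% as higher and 18.8% as lower, so 5 of 10 called is not far from the background. The median log2 fold change of the 10 genes was -0.48, against -0.02 over all genes tested. In 4 of the 10, Fabp7, Ppard, Angptl4 and Plin2, the libraries of the groups did not overlap, as in 51.7% of all genes tested. All 10 passed the filter on low counts, Fabp7 through its knockout libraries, since it was under 1 CPM in every control.

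**Figure D1:**
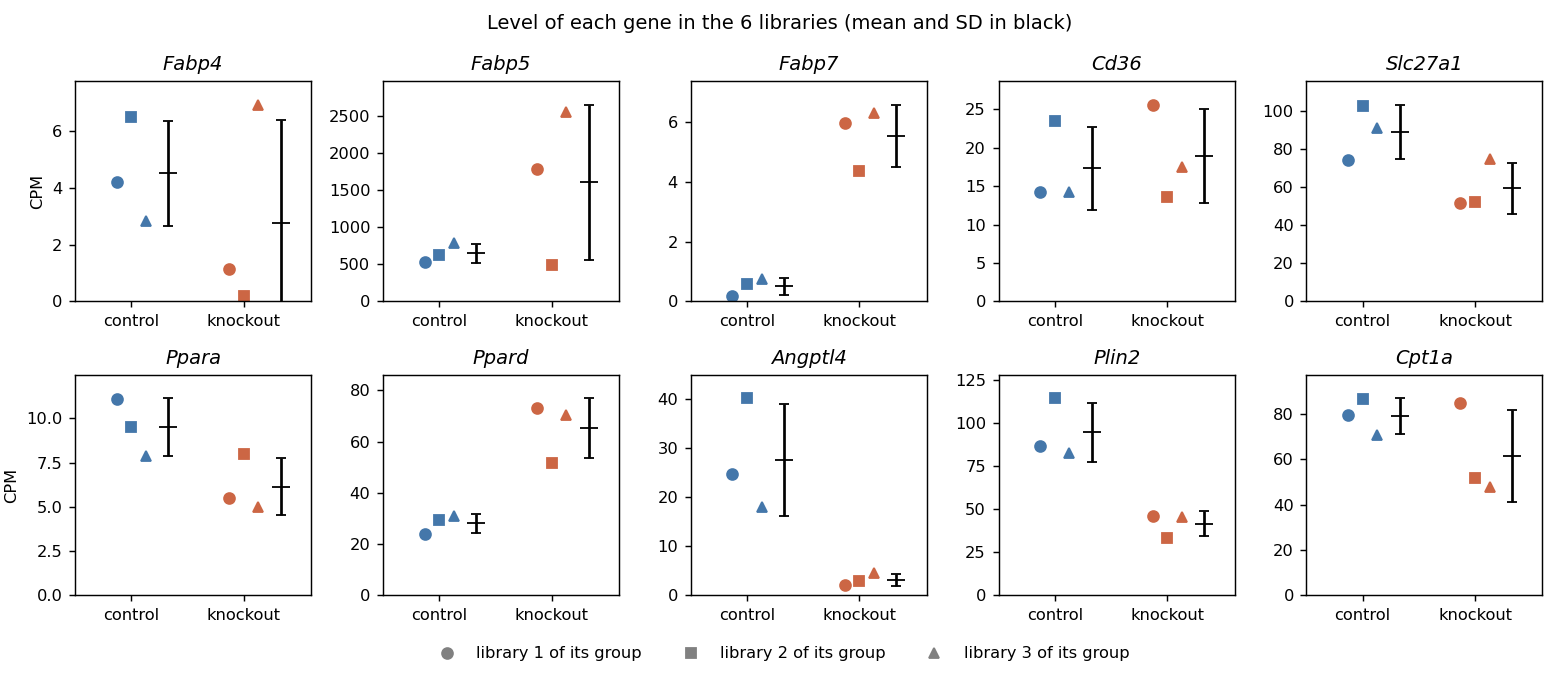
CPM of each gene (y axis, from 0, a scale of its own per panel) in control (blue) and knockout (orange) libraries, with symbols for libraries 1 to 3 and mean ± SD in black (the bar of Fabp4 is cut at 0). Knockouts lie wholly above controls for Fabp7 and Ppard and wholly below for Angptl4 and Plin2, and knockout 2 lies apart from the other knockouts for Fabp5.

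Among the FABP genes, Fabp5 was by far the most abundant. Fabp5, the epidermal FABP, stood at 536, 626 and 785 CPM in controls 1, 2 and 3 and at 1782, 487 and 2555 CPM in knockouts 1, 2 and 3. Knockouts 1 and 3 were above every control and knockout 2 was below every control, so the groups overlapped. The log2 fold change was 1.31 (SE 0.52), a fold of 2.48 that was not called (edgeR adjusted p = 0.0835). Without knockout 2 it was 1.75 and called (edgeR adjusted p = 0.00799), and DESeq2 (adjusted p = 0.0109) and a fit with sex as a covariate (edgeR adjusted p = 0.0462) called it too, while the adjusted p ranged from 0.00799 to 0.247 over 15 alternatives. In GRCm38 coordinates, used throughout, Fabp5 occupies 10012548 to 10016607 of chromosome 3 (plus strand). Fabp5l2, an annotated retrocopy that carries its name, held at most 1 count in any library. Copies under other names were not searched for.

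Knockout 2 also stood apart from the other knockouts in genes of stressed epidermis, chosen here after their values were seen. The stress keratin gene Krt16 stood at 2194, 412 and 3542 CPM in knockouts 1, 2 and 3, against 46.4 to 118 CPM in the controls. S100a8, a calprotectin subunit of stressed keratinocytes and of neutrophils, stood at 440, 56.2 and 656 CPM, against 2.11 to 18.3 CPM. Thus knockout 2 was the lowest knockout for Fabp5, Krt16 and S100a8 alike, but above all controls for the latter genes only. Whether the level of stress genes bears on that of Fabp5 was not tested. Among the 10 genes, knockout 2 was the lowest knockout in 6: Fabp4, Fabp5, Fabp7, Cd36, Ppard and Plin2.

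By Pearson's r of log2 CPM over the 6 libraries, the genes most like Fabp5 were Gk, which encodes glycerol kinase (r = 0.997), Pgk1-rs7, a copy of a phosphoglycerate kinase gene whose reads may be shared with Pgk1 (r = 0.996), and Teddm3 (r = 0.980). Gk stood at 27.4, 31.9 and 36.9 CPM in the controls and 56.4, 25.6 and 71.6 CPM in the knockouts, again lowest in knockout 2. None of the 3 was called between the groups. The search took in 10692 genes of at least 5 CPM, and 20 of them had an r over 0.95.

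Fabp7, the brain-type FABP known from glia and neural progenitors, was the member with the highest fold. It held 4, 12 and 19 counts in controls 1 to 3 and 141, 125 and 174 counts in knockouts 1 to 3, which is 0.172, 0.572 and 0.747 CPM against 5.96, 4.36 and 6.32 CPM. Every knockout was above every control, from a base near the lower limit of what these depths count. The log2 fold change was 3.46 (SE 0.44, edgeR adjusted p = 0.00217), and Fabp7 was called in all 15 alternatives, with log2 values from 3.06 to 3.90. Only 0.374% of the genes tested had a higher fold. Fabp7 lies on chromosome 10, from 57784881 to 57788450 on the plus strand.

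No listed Schwann cell or melanocyte marker rose with Fabp7, while 17.4% of all genes tested rose. Of 6 Schwann cell markers none rose and 2 fell, S100b among them. The share called, 33.3%, is near the 36.2% of all genes tested. The sum of the list was 43.9 to 49.6 CPM in the controls and 49.3 to 50.6 CPM in the knockouts, most of it Mbp. Sox10, a transcription factor of glia and melanocytes, stood at 0.381 to 1.89 CPM in the knockouts. All 5 melanocyte markers fell, against 18.8% of all genes tested, from sums of 50.2 to 179 CPM to sums of 11.0 to 21.3 CPM. The part of these cells in the level of Fabp7 was not tested. The genes whose pattern was most like that of Fabp7 were Mrs2, a mitochondrial magnesium channel gene (r = 0.997), Porcn, which encodes an acyltransferase of Wnt proteins (r = 0.997), and Setd7, a lysine methyltransferase gene (r = 0.997). With 549 of 10693 genes at an r over 0.95, this pattern of knockouts above controls was a common one.

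Fabp4, the FABP of adipocytes, macrophages and capillary endothelium, was low and uneven. It stood at 4.22, 6.48 and 2.83 CPM in the controls and 1.14, 0.175 and 6.93 CPM in knockouts 1, 2 and 3, the last being the highest of all 6 libraries and knockout 2 resting on 5 counts. The log2 fold change was -0.70 (SE 0.98) and was not called (edgeR adjusted p = 0.597). Without knockout 3 it was -2.80 and called (edgeR adjusted p = 0.0287), within a range of adjusted p from 0.0287 to 0.897 over 15 alternatives. The call for Fabp4 thus hung on 1 library.

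Of the cells that carry Fabp4, adipocytes and endothelium had mostly scarce markers, while macrophage markers were scarce in part. The adipocyte markers Adipoq, Retn, Cfd, Lep and Thrsp were under 1 CPM in every library, and Adrb3, the sixth of that list, fell from 6.09 to 7.45 CPM in the controls to 2.07 to 3.53 CPM in the knockouts. Of 10 endothelial markers 7 were under 1 CPM in every library, and the list summed to 5.60 to 6.96 CPM in the controls and 2.79 to 3.12 CPM in the knockouts. Macrophage and monocyte markers summed to 28.4 to 63.0 CPM in the controls and 38.5, 58.0 and 58.0 CPM in knockouts 1, 2 and 3. Csf1r was the largest part of the sum in every library. Of the 9 markers, 3 were under 1 CPM in every library, Mrc1, Cd163 and Fcgr1, and 2 rose, the complement genes C1qa and C1qb. Of the 7 tested 28.6% were called, against 36.2% of all genes tested. Single markers differed in their order: in knockouts 1, 2 and 3 the receptor gene Csf1r stood at 26.6, 37.8 and 29.8 CPM, Adgre1 at 3.00, 5.55 and 4.90 CPM and the lysozyme gene Lyz2 at 1.14, 0.908 and 5.70 CPM. Lyz2 was highest in knockout 3, as Fabp4 was. So were Cd68 at 2.96, 6.81 and 7.37 CPM, C1qa at 3.30, 4.61 and 7.04 CPM, and C1qb at 1.18, 1.78 and 2.43 CPM. Csf1r and Adgre1 were highest in knockout 2, where Fabp4 was lowest. Skeletal muscle markers were also highest in knockout 3, at a sum of 9.44 CPM against 3.43 and 4.89 CPM in knockouts 1 and 2. The part of these cells in the level of Fabp4 was not tested.

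Fabp5 and Fabp4 lie in 1 cluster on chromosome 3 that also holds Pmp2, Fabp9 and Fabp12 and spans 288.6 kb. Pmp2 and Fabp9, which lie between Fabp5 and Fabp4, had no counts in any library, Fabp4 had 5 to 191, and Fabp12 had at most 6. A count of 0 allows up to 3 counts per library, and such limits cover counting error only. Per kilobase of its longest coding transcript, Fabp5 exceeded Fabp4 in every library, by a ratio of 87.7 to 252 in the controls and of 334 to 2533 in the knockouts, where the lowest count of Fabp4 sets the upper end.

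Of the genes for uptake proteins among the 10, Slc27a1 fell and Cd36 was not called. Cd36, the fatty acid translocase, stood at 14.2, 23.5 and 14.2 CPM in the controls and 25.6, 13.6 and 17.5 CPM in the knockouts. The groups overlapped, and the log2 fold change of 0.13 (SE 0.28) was not called (edgeR adjusted p = 0.747) and changed sign in 4 of 15 alternatives. Slc27a1, fatty acid transport protein 1, stood at 74.1, 102 and 90.7 CPM in the controls and 51.3, 51.9 and 74.5 CPM in the knockouts. It fell by 0.59 on the log2 scale (SE 0.18, edgeR adjusted p = 0.0388), with knockout 3 just above control 1. Its call did not survive leaving out control 2 (edgeR adjusted p = 0.119), control 3 (0.102), knockout 1 (0.129) or knockout 2 (0.114), within a range of 0.0117 to 0.129 over 15 alternatives.

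Cd36 lies on chromosome 5, from 17781690 to 17888801 on the minus strand, and Slc27a1 on chromosome 8, from 71568882 to 71587302 on the plus strand. No annotated gene overlaps any of the 10 members in GENCODE M21, but the annotation behind the deposited counts is not given. Whether reads of antisense or overlapping transcripts enter their counts was not tested.

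A list of 23 other binding, uptake and activation genes held 15 tested genes, of which 1 rose, 4 fell and 10 were not called, with a median log2 fold change of -0.19. The share called, 33.3%, is close to the 36.2% of all genes tested. Those that fell were Acsl4 and Acsl5, acyl-CoA synthetase genes, Dbi, which encodes an acyl-CoA binding protein, and Slc27a3. Acsl4, which prefers polyunsaturated fatty acids, fell from 164 ± 16.6 to 62.5 ± 16.6 CPM (SD, n = 3 each), a log2 fold change of -1.39 (SE 0.19). Dbi fell from 537 ± 120 to 212 ± 52.4 CPM (-1.34, SE 0.24). The gene that rose was Got2, a mitochondrial aspartate aminotransferase also described as a fatty acid binding protein of the plasma membrane, by 0.70 (SE 0.16).

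Acsl5 (-0.56, SE 0.14) and Slc27a3 (-1.03, SE 0.27) were named after their values were seen, as was Slc27a4. The call of Acsl5 was lost without knockout 2 (edgeR adjusted p = 0.0587, range 0.000310 to 0.0587) and that of Slc27a3 without control 1 or knockout 3 (0.0608 and 0.0524, range 0.00142 to 0.0608). Without control 1, and without knockout 1, the number of genes that rose was 2. Slc27a4, the transport protein needed for the skin barrier, stood at 107 ± 11.3 and 113 ± 23.9 CPM, and Lpl, lipoprotein lipase, at 16.2 ± 5.09 and 15.5 ± 5.45 CPM. Neither was called, and both changed sign in 2 of 15 alternatives. Other FABP genes were rare: Fabp1 had no counts, Fabp2, Fabp3 and Fabp12 stayed under 1 CPM, and Fabp6 stood at 2.14 to 4.01 CPM in the controls and 1.68 to 2.07 CPM in the knockouts.

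**Figure D2:**
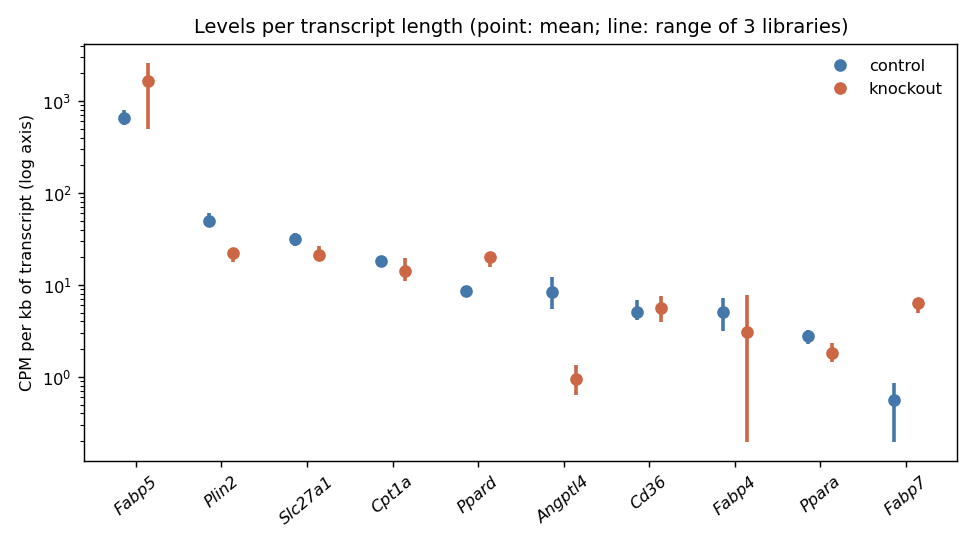
Level of each gene in CPM per kilobase of its longest coding transcript (y axis, log scale) in controls (blue) and knockouts (orange), ordered by the control mean, with points for means and lines for the range of 3 libraries. Fabp5 lies above all the others in both groups, Ppard and Fabp7 move up the order in the knockouts and Angptl4 moves to the bottom.

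Levels between genes were compared per kilobase of the longest coding transcript. In the controls the order ran from Fabp5 (658 ± 128 CPM per kb) through Plin2 (50.0 ± 9.11), Slc27a1 (31.8 ± 5.05) and Cpt1a (18.3 ± 1.82) to Ppard (8.56 ± 1.11), and the libraries of each of these lay apart from those of the next. Angptl4, Cd36 and Fabp4 followed, and the ranges of Ppard and these 3 overlapped from one neighbour to the next, as did those of Fabp4 and Ppara. Fabp7 was last at 0.565 ± 0.335 CPM per kb. In the knockouts Fabp5 (1629 ± 1058) was again first, and Plin2, Slc27a1, Ppard (19.9 ± 3.58) and Cpt1a had overlapping ranges. Angptl4 was last there, at 0.944 ± 0.358 CPM per kb. With the union of all annotated exons as the length, Ppard came after Angptl4 and Cd36 in the controls, and Fabp4 after Ppara. In the knockouts that length put Cd36 before Fabp7 and made Fabp4 the last gene, after Ppara and Angptl4. The first 4 places in the controls and the first 5 in the knockouts were the same with either length.

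The PPAR genes diverged. Ppard, the isotype PPAR delta, stood at 23.9, 29.3 and 30.9 CPM in the controls and 73.3, 51.7 and 70.5 CPM in the knockouts. All 3 knockouts were above every control. It rose 2.32-fold (log2 fold change 1.22, SE 0.17, edgeR adjusted p = 0.00266) and was called in all 15 alternatives, between 1.07 and 1.36 on the log2 scale. Ppard lies on chromosome 17, from 28232700 to 28301474 on the plus strand.

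Ppara, the isotype that drives fatty acid oxidation in liver, stood at 11.1, 9.53 and 7.86 CPM in the controls and 5.50, 7.96 and 4.97 CPM in the knockouts. Only knockout 2 reached into the control range. The log2 fold change was -0.63 (SE 0.23) and was not called (edgeR adjusted p = 0.0678). It was called with DESeq2 (adjusted p = 0.0478), with upper-quartile factors (edgeR, 0.0322), with sex as a covariate (edgeR, 0.0332) and without knockout 2 (edgeR, 0.0374), and the range over 15 alternatives was 0.0322 to 0.191. Ppara lies on chromosome 15, from 85734983 to 85802819 on the plus strand.

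Pparg, the isotype of adipocytes and sebocytes and not among the 10 genes, stood at 9.78, 11.2 and 11.5 CPM in the controls and 3.34, 3.28 and 3.88 CPM in the knockouts. It fell by 1.63 on the log2 scale (SE 0.17, edgeR adjusted p = 0.00141), with every knockout below every control. Sebocyte markers moved the same way: of 7 none rose, and Awat2, Mc5r, Far2 and Dgat2l6 fell, with a median of -1.45. The share called was 57.1%, against 36.2% of all genes tested. The part of sebocytes in the fall of Pparg was not tested. Per transcript length, Ppard exceeded Ppara in each library, by a ratio of 2.24, 3.20 and 4.10 in the controls and of 13.9, 6.77 and 14.8 in the knockouts. The ratio of Pparg to Ppara was 1.41 to 2.34 in the controls and 0.662 to 1.25 in the knockouts, so in every knockout Ppard was higher, and Pparg lower, relative to Ppara than in any control.

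Of 15 listed partners and coregulators of the PPARs 14 were tested, 5 rose, 1 fell (Pparg) and 8 were not called, with a median log2 fold change of 0.27. The share called, 42.9%, is near the 36.2% of all genes tested. Pprc1, a coactivator of the PGC1 family, rose from 38.6 ± 1.64 to 66.7 ± 3.48 CPM (0.79, SE 0.10, edgeR adjusted p = 0.00210) and was called in all 15 alternatives. The p160 coactivator genes Ncoa1 (0.44, SE 0.11), Ncoa2 (0.46, SE 0.13) and Ncoa3 (0.47, SE 0.13) and the corepressor gene Nrip1 (0.47, SE 0.16) made up the rest, of which the last 3 were named after their values were seen. Rxra, the main retinoid X receptor of epidermis, stood at 253 ± 22.2 and 308 ± 22.9 CPM and was not called (edgeR adjusted p = 0.128).

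These small rises depended on single libraries and on scaling. The number of partners that rose was 1 without control 1, control 3 or knockout 2, 2 without control 2 or knockout 1, 6 without knockout 3, and 1 with upper-quartile factors. Ncoa1 lost its call in 5, Ncoa2 in 6, Ncoa3 in 5 and Nrip1 in 10 of 15 alternatives. For Ncoa1 the edgeR adjusted p reached 0.0600, and for Nrip1 it reached 0.138.

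Promoter sequences from RefSeq (GRCm38.p6, 250 bases before to 50 after each start) were matched for 7 of the 10 genes. Those of Fabp4, Fabp5 and Angptl4 were not used here. They were searched on both strands for AGGTCA, the core motif bound by PPARs and other nuclear receptors, and for DR1, a direct repeat of that motif with 1 base between the copies as bound by PPAR with a retinoid X receptor. The repeat was searched exactly and with at most 2 of the 12 fixed letters changed (relaxed), and its matches can overlap those of the core. Plin2 and Cd36 are shown because only they matched the relaxed repeat. Fabp7 is shown because it rose the most and holds the core motif, and Ppard because it rose and holds neither motif. Slc27a1 and Ppara, which did not rise, also hold neither. The sequences run 5′ to 3′ on the gene's strand, with matches in capitals.
Plin2 (chr4:86670010-86670309, minus strand): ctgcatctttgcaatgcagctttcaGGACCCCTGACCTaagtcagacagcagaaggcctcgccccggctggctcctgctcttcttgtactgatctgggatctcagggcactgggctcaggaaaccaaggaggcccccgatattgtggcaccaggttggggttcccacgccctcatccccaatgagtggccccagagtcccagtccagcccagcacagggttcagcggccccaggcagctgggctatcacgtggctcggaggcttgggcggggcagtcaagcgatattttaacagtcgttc
Cd36 (chr5:17835847-17836146, minus strand): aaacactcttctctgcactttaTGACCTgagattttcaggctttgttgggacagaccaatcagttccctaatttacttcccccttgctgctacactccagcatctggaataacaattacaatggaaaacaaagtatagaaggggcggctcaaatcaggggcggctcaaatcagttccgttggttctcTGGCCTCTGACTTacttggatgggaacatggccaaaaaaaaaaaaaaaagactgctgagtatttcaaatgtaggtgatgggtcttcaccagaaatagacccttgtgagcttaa
Fabp7 (chr10:57784673-57784972, plus strand): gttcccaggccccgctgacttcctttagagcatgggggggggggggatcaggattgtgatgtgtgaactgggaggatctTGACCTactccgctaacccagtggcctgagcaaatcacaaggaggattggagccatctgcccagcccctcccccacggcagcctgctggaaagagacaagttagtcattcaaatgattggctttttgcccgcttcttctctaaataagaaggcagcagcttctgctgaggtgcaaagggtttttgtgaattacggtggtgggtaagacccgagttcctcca
Ppard (chr17:28232504-28232803, plus strand): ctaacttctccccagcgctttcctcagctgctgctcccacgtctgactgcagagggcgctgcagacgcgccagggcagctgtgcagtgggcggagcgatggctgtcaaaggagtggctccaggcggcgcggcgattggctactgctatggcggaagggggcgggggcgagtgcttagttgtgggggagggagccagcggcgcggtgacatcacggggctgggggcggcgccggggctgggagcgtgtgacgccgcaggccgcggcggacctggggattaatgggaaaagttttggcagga

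In Plin2 the relaxed repeat on the opposite strand, written here on the gene's strand as GGACCCCTGACCT, lies from base -225 to -213 before the start and includes the core motif. Cd36 holds TGGCCTCTGACTT from -63 to -51 and a separate core motif from -228 to -223, all on the opposite strand. The Cd36 start used lies inside the annotated gene, whose upstream end, at 17888801, was not searched. For Cpt1a and Ppara, too, the bases searched lie inside the annotated gene. They begin at 3323051 and 85735526, while the genes begin at 3322334 and 85734983. The core stands from -171 to -166 in Fabp7 and from -94 to -89 in Cpt1a, also on the opposite strand. None of the 7 members searched matched the exact repeat. Of all 32851 promoters of this length, 16.3% held the core, 0.0396% the exact repeat and 3.86% the relaxed repeat. The TATA motif TATAAA, searched on the gene's strand, was in none of the promoters of these 7 members and in 8.32% of all.

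Angptl4 and Plin2, both classical PPAR targets, had the largest falls among the 10 genes, while Cpt1a, another such target, was not called. Angptl4, which encodes a secreted inhibitor of lipoprotein lipase, stood at 24.7, 40.1 and 17.9 CPM in the controls and 2.11, 2.83 and 4.43 CPM in the knockouts. The highest knockout was far below the lowest control. It fell by 3.13 on the log2 scale (SE 0.37, edgeR adjusted p = 0.00188), so the controls were 8.78-fold higher, and it was called in all 15 alternatives, between -3.46 and -2.75. Only 0.774% of the genes tested had a lower fold. Angptl4 lies on chromosome 17, from 33773750 to 33781830 on the minus strand.

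Plin2, perilipin 2, coats lipid droplets in most cells. It stood at 86.3, 114 and 82.7 CPM in the controls and 46.1, 33.2 and 45.1 CPM in the knockouts, again with no overlap. It fell by 1.19 on the log2 scale (SE 0.18, edgeR adjusted p = 0.00351) and was called in all 15 alternatives, between -1.33 and -1.02. Plin2 lies on chromosome 4, from 86648386 to 86670060 on the minus strand. Sebocytes are rich in lipid droplets, and 4 of their 7 markers fell in the same libraries, against 18.8% of all genes tested. The other 3, Scd1 among them, were not called. The part of sebocytes in the fall of Plin2 and Angptl4 was not tested.

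Cpt1a, the carnitine acyltransferase that admits long-chain fatty acids to mitochondria, stood at 79.6, 86.5 and 70.8 CPM in the controls and 84.7, 51.6 and 47.7 CPM in the knockouts. Knockouts 2 and 3 were below every control, while knockout 1 lay within the control range. The log2 fold change of -0.37 (SE 0.22) was not called (edgeR adjusted p = 0.218). Without knockout 1 it was -0.66 and called (edgeR adjusted p = 0.0229), within a range of 0.0229 to 0.479 over 15 alternatives. Cpt1a lies on chromosome 19, from 3322334 to 3385733 on the plus strand.

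**Figure D3:**
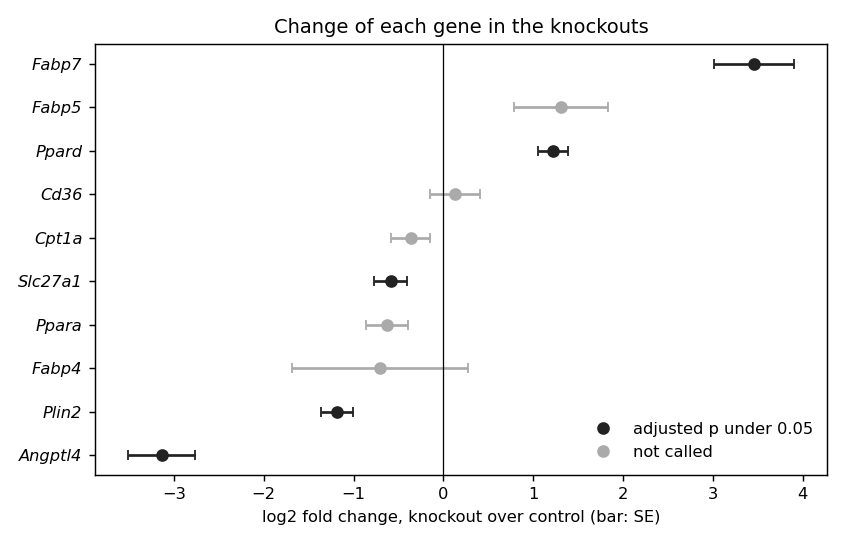
Log2 fold change of each gene, knockout over control (x axis, bar: SE), in black where the adjusted p was under 0.05 and in grey where not. Fabp7 (3.46) and Angptl4 (-3.13) stand at the ends, and Ppard (1.22) and Plin2 (-1.19) moved by similar amounts in opposite directions.

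The members thus differed in spread as well as in direction. Within the knockouts, Fabp4 (2.75 ± 3.65 CPM) and Fabp5 (1608 ± 1045 CPM) varied most from mouse to mouse. Ppard (65.2 ± 11.7 CPM), Plin2 (41.5 ± 7.16 CPM) and Fabp7 (5.55 ± 1.04 CPM) varied least relative to their means. Angptl4 varied in the controls (27.6 ± 11.4 CPM), with control 2 the highest. Control 2 was the highest control in 6 of the 10 genes, and hair shaft and sheath markers were also highest there (a sum of 257 CPM, against 64.2 and 143 CPM in controls 1 and 3).

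Among other genes of fatty acid oxidation and classical targets, falls outnumbered rises. Of 34 listed, 29 were tested, 16 fell, 1 rose and 12 were not called, with a median log2 fold change of -0.51 against -0.02 over all genes tested. The share called was 58.6%, against 36.2% of all genes tested. Decr1, the reductase that lets unsaturated fatty acids be oxidized, fell from 64.6, 63.6 and 48.9 CPM to 17.0, 17.3 and 17.3 CPM (-1.78, SE 0.13, edgeR adjusted p = 0.000493). Etfb, a subunit of the electron transfer flavoprotein, fell from 86.4 ± 5.87 to 37.7 ± 6.48 CPM (-1.20, SE 0.15). Slc25a20, the carnitine carrier that works next to Cpt1a, fell from 51.9 ± 2.01 to 29.4 ± 1.52 CPM (-0.82, SE 0.10). All 3 were called in all 15 alternatives.

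The number of genes of this list that rose was 0 without control 1, without knockout 1 or without knockout 2. Pdk4, a kinase that restrains glucose oxidation and a sensitive PPAR target in other tissues, was not called (edgeR adjusted p = 0.562). It stood at 28.6, 30.7 and 16.1 CPM in the controls and 14.8, 52.5 and 28.6 CPM in the knockouts. Knockout 2 was the highest library and the groups overlapped, and without knockout 2 the log2 fold change was -0.20, against 0.35 with it.

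The fall of oxidation genes stood beside a lower mitochondrial share of counts in the knockouts, given above, whose part in it was not tested. With the mitochondrially encoded genes left out, an alternative added after the data were seen, the list again had 16 genes lower and 1 higher. That alternative only removes those genes from the fit, so it does not test the part of the mitochondrial share. Of the targets and enzymes named here, Angptl4, Plin2, Decr1, Etfb and Slc25a20 fell, and Pdk4 and Cpt1a were not called.

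Droplet and triglyceride genes were mixed. Of 18 listed, 13 were tested, 4 rose, 2 fell and 7 were not called, with a median of -0.23. The share called was 46.2%, against 36.2% of all genes tested, which for 13 genes is near it. Cidea, a droplet protein of sebocytes and brown fat, fell from 37.8 ± 8.74 to 11.3 ± 2.06 CPM (-1.75, SE 0.20). Dgat2, which completes triglyceride synthesis, rose from 114 ± 17.8 to 286 ± 79.5 CPM (1.33, SE 0.23). Fitm2, a protein of droplet formation, rose by 0.75 (SE 0.15). These 3 were called in all 15 alternatives.

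Named after their values were seen, the lipase gene Pnpla2 (0.82, SE 0.22) and the seipin gene Bscl2 (0.54, SE 0.13) also rose, and the monoacylglycerol lipase gene Mgll fell by 0.68 (SE 0.20). Pnpla2 lost its call without any 1 of the controls, Mgll without control 1, control 2 or knockout 2, and Bscl2 without control 3 or knockout 1 (edgeR adjusted p at most 0.0795, 0.0813 and 0.0547, at least 0.00319, 0.00575 and 0.00193). The number that fell was 1 without control 1, control 2 or knockout 2, and the number that rose was 2 without control 3. Plin3, a perilipin of small droplets, stood at 101 ± 16.9 and 80.6 ± 12.1 CPM, and Hilpda, an inhibitor of Pnpla2, at 9.37 ± 0.994 and 6.99 ± 1.04 CPM, and neither was called except with upper-quartile factors (edgeR adjusted p of 0.0477 and 0.0380, at most 0.411 and 0.243 over 15 alternatives). Plin1, the perilipin of adipocytes, was under 1 CPM in every library.

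**Figure D4:**
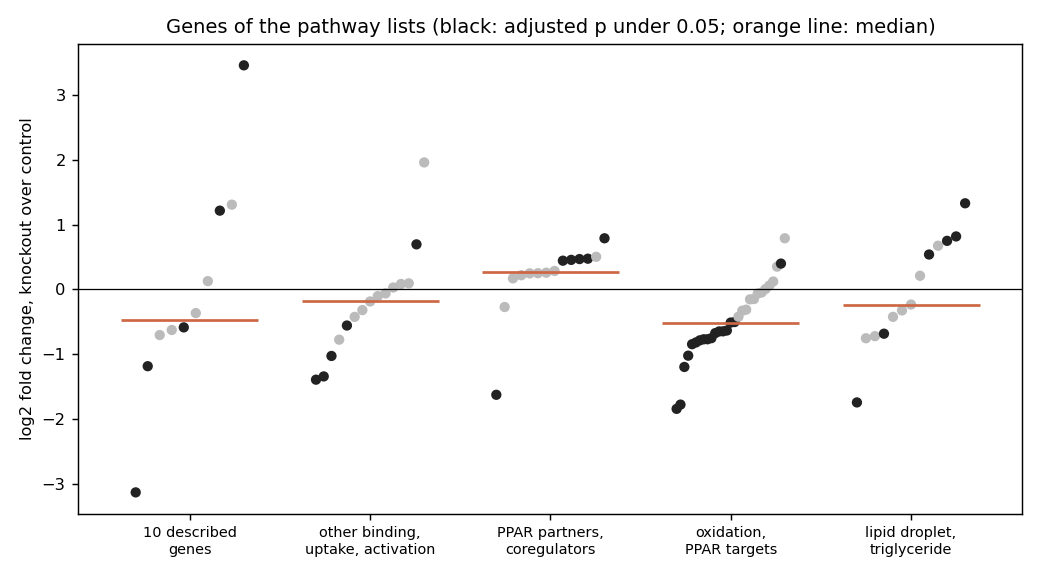
Log2 fold change, knockout over control (y axis), of every tested gene of the 10 described and of the 4 pathway lists (x axis), black where the adjusted p was under 0.05, with the median of each list in orange. Black points of the oxidation list lie below 0 with 1 exception, while the partner list has a positive median with Pparg at its lower end.

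**Figure D5:**
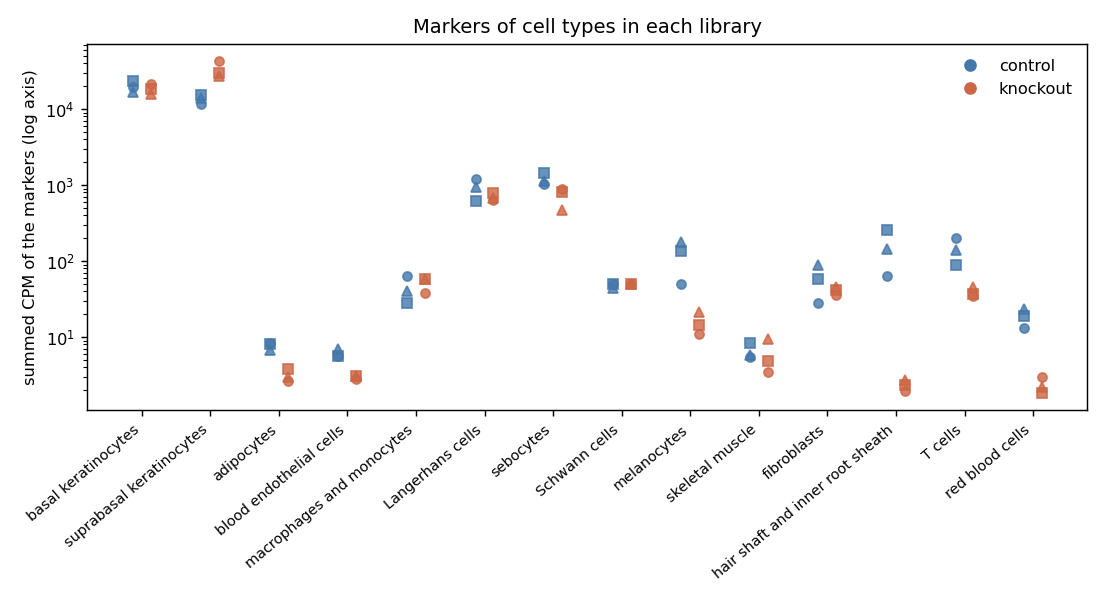
Summed CPM of each list of cell type markers (y axis, log scale) in control (blue) and knockout (orange) libraries, 1 point per library. Basal keratinocyte sums overlap between the groups, suprabasal sums are higher in the knockouts, and sebocyte, melanocyte, hair, T cell and red blood cell sums are lower.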

How the data were processed

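RNA from isolated epidermal keratinocytes of 3 control and 3 knockout mice was sequenced, 1 library per mouse. The authors deposited 1 table of whole-number counts per Ensembl gene, which was used as deposited. TopHat 1.3.3, featureCounts 1.4.6 and Cuffdiff 1.3.0 with GRCm38 are named, without roles, in the submitters' processing notes. Annotation, strand use and treatment of multiply mapped reads are not given in the sources used here. Symbols came from GENCODE M21 for 98.1% of identifiers. No columns were copies of one another.

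Counts were fitted with edgeR 4.0.16 in R 4.3.3 (TMM, filterByExpr, robust quasi-likelihood, group as the only term), which tested 15513 genes. CPM are counts scaled to library size and TMM factor. Rises and falls are log2 of knockout over control. The same code was tested on simulated counts. Alternatives were DESeq2 size factors, upper-quartile factors, no filter, 3 libraries at 1 CPM or more, DESeq2 1.42.0, limma-voom (limma 3.58.1), a replicate block, sex inferred from Xist and Ddx3y (1 female control, 2 female knockouts), each library left out and, added later, no mitochondrial genes.

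Members and lists were chosen with earlier results of these data known. From each of 4 pathway lists (90 genes in all, of which 71 were tested) the 3 called genes of smallest p were named, with Lpl, Pparg, Rxra, Pdk4, Hilpda and Plin3, and markers from 14 lists served as side values. Some genes of these lists are not reported here by name.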

Additional observations from a re-analysis of the deposited data

How the results depend on the processing

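Of 180 recomputed counts of higher or lower genes, 154 stayed within 1.5 times the value given, and of 540 recomputed log2 fold changes of named genes, 479 kept their direction and their side of the threshold. Fabp7, Ppard, Angptl4 and Plin2 did so in all 15 alternatives. Upper-quartile factors moved the median of all genes tested to -0.17 from -0.02 and the share of called genes that were higher to 30.6% from 48.0%. With them 1756 genes, 1 partner and 0 oxidation genes were higher and 4 droplet genes lower, and Cd36 (-0.020) and Slc27a4 (-0.067) changed sign. With DESeq2, 2 uptake genes were higher. With sex as a covariate, 2 oxidation genes were higher.

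With the replicate number as a block, 2 oxidation genes were higher and Nrip1 was not called (edgeR adjusted p = 0.0557). Same-numbered libraries had correlations of their deviations of -0.11, -0.10 and 0.42, and the labels tie them by number only, so they were not taken as paired. The block gave 2422 higher and 2701 lower genes, and not every library correlated best with its own number.

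With 1 library left out, higher genes numbered 1586 to 2754 and lower genes 1714 to 2771, with higher genes lowest without control 3 (1586) and knockout 1 (1681), and lower genes without control 3 (1714), knockout 1 (1735) and knockout 2 (1750). Higher uptake genes numbered 1 to 2, higher partners 1 to 6, higher oxidation genes 0 to 1, higher droplet genes 2 to 5 and lower droplet genes 1 to 2. Among named genes that were not called, Cd36 ranged from -0.14 to 0.42 and was below 0 without control 1 (-8.0e-05), control 3 (-0.0036) or knockout 1 (-0.14). Slc27a4 ranged from -0.093 (without knockout 1) to 0.20, Lpl from -0.32 to 0.19 (above 0 without control 2, 0.19, or knockout 3, 0.19) and Pdk4 from -0.20 (without knockout 2) to 0.70. The cause was not tested. Depth limits Fabp7 in the controls and Fabp4 in knockout 2, which rest on 4 to 19 counts and on 5.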

Other observations

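Marker lists not described beside a gene gave the following sums. Langerhans cell markers summed to 610 to 1196 CPM in the controls and 638 to 796 CPM in the knockouts, and 1 of 5, Cd207, fell. T cell markers summed to 89.4 to 204 CPM and 35.2 to 45.7 CPM, and 5 of 6 fell. Hair shaft and inner root sheath markers summed to 64.2 to 257 CPM and 1.95 to 2.72 CPM, and all 7 fell. Fibroblast markers summed to 28.3 to 89.5 CPM and 35.4 to 46.1 CPM, and 2 of 6 fell, Dcn and Lum. Red blood cell markers summed to 13.3 to 23.2 CPM and 1.82 to 3.00 CPM, and 4 of 5 fell. Skeletal muscle markers summed to 5.51 to 8.29 CPM in the controls, and none of the 3 tested was called by edgeR. The share called was above the 36.2% of all genes tested for the T cell, hair and red blood cell lists. For the Langerhans cell, fibroblast and skeletal muscle lists it was below that share, so their counts do not stand out from the background.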
